A study of Drosophila melanogaster with 35 samples.

Results

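The genes described here encode the proteins of the Drosophila mitochondrial ribosome, and the values are the amounts of 7 chromatin proteins found at those genes. The set was taken as every gene whose symbol in the array's probe-to-gene table starts with mRpL or mRpS, for the large and the small ribosomal subunit. This gave 61 of the 7736 genes on the array, 43 of them named for the large and 18 for the small subunit. They were read by 74 probes, because 13 of the genes had 2 probes, which were averaged. All 61 genes had a value on all 35 arrays. Of the 73 genes with such symbols in the RefSeq gene table for the Release 6 assembly, 12 had no probe of their own. The 61 genes lie apart from each other, with 9 on the X chromosome, 9 on arm 2L, 10 on 2R, 17 on 3L, 16 on 3R and 0 on chromosome 4.

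Mitochondria keep their own ribosomes, which translate the few messages of the mitochondrial genome into core subunits of the respiratory chain. The protein components of these ribosomes are all encoded in the nucleus in flies, made in the cytoplasm and imported. Part of them have counterparts in bacterial ribosomes and the others are found only in mitochondria. The genes are needed in nearly every cell and are usually grouped with the housekeeping genes of euchromatin, the open and gene-rich part of the chromosomes. Heterochromatin is the condensed part around centromeres, at telomeres and on chromosome 4. HP1 is its best-known protein, which binds histone H3 methylated by enzymes such as Su(var)3-9.

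Binding was measured by DamID, in which a protein is fused to the E. coli DNA adenine methyltransferase Dam, so that DNA near its binding places gains adenine methylation. Methylated DNA of cells with the fusion was hybridised to a cDNA array against that of cells with Dam alone, so each value is a ratio of fusion over Dam and 0 on the log2 scale means no enrichment over the array's median. All arrays came from Kc167, a cell line derived from Drosophila embryos, and each full-length coding sequence was transfected on a plasmid as a fusion with Dam and a Myc tag, besides whatever native protein the cells made. A higher ratio cannot separate more cells bound from more methylation in each bound cell, and since DNA was assayed, neither the cells' RNA nor the extent of any knock-down could be checked.

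Untreated cells expressed Dam fused to HP1 (4 arrays), to Su(var)3-9 (3), to HP3 (4), HP4 (4), HP5 (4) or HP6 (3), which are the 6 heterochromatin proteins of the study, or to Jra (3), a transcription factor of the AP-1 family that served as its protein outside heterochromatin. HP3 was also mapped after knock-down of HP1 (3 arrays) and after knock-down of the eye colour gene white as the control (3). HP6 was mapped after the same knock-downs with 2 arrays each. The labels give no sign of whether replicate arrays stand for separate cultures, and the p-values then cover just the variation from array to array. Levels and differences below are fitted log2 values from 1 limma model over all 35 arrays with a dye term, with the standard error (SE) of the model. A gene is called above or below 0, higher or lower, where its p adjusted over all 9004 tested features (genes, and probes without a single gene) is under 0.05.

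The fusion's own gene, which is read from the transfected plasmid, served as a check of the labels for HP1, HP3, HP4, HP5 and Jra. It stood above its level on all other arrays on every array so labelled, with exceptions at HP3 replicate 2 and for the gene HP4. On HP3 replicate 2 Lhr, the gene of HP3, read 0.0923 against 3.52 to 6.18 on the other HP3 arrays. HP3 replicate 2 correlated with the other 34 arrays at only -0.0758 to 0.0855. The gene HP4 was at 4.81 on HP6 replicate 3, within the 3.71 to 5.02 of the HP4 arrays, where 1.24 was the next highest value outside them. HP6 replicate 3 correlated with the 4 HP4 arrays at 0.455 to 0.915 and with the other HP6 arrays at 0.486 and 0.598. Without these 2 arrays, the number of members called changed by more than 1.5 times in 1 comparison, HP6 after white knock-down, where it went from 1 to 3.

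HP1 was called above 0 at few of the 61 genes, while HP5, HP4 and Su(var)3-9 were called above 0 at many of them. Of the 61 genes, 26 were called above 0 for HP5 (42.6%) and 3 below, where the shares over all features were 18.7% and 18.9%. For HP4, 20 were called above 0 (32.8%) and 7 below, against 19.9% and 21.8% of all features. For Su(var)3-9, 15 were called above 0 (24.6%) and 5 below, against 16.2% and 17.6%. The share above 0 was thus larger than that of all features at each of these proteins, and the share below 0 smaller. The medians over the 61 genes were 0.37 for HP5, 0.21 for HP4 and 0.32 for Su(var)3-9, where the medians of all features were -0.00, -0.03 and -0.00.

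Single arrays carried part of these counts. For HP5, 14 genes were above 0 and 0 below without HP5 replicate 1. For HP4, 11 and 5 were called without HP4 replicate 1. For Su(var)3-9 it was 6 and 4 without replicate 1, and 7 and 2 without replicate 2. In a fit of the 4 HP4 arrays alone, 4 genes were called above 0 for HP4 and 0 below.

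**Figure D1:**
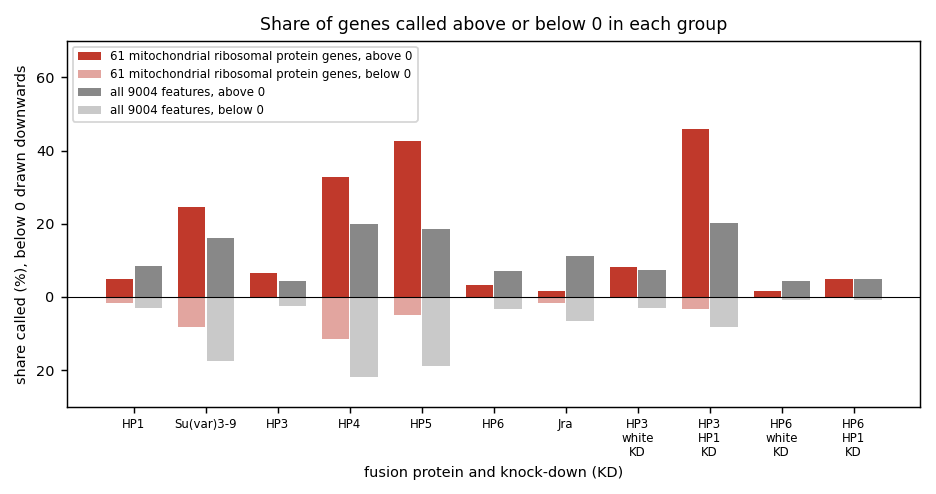
Share of genes called above 0 (drawn upwards) and below 0 (drawn downwards) in each of the 11 groups, for the 61 mitochondrial ribosomal protein genes and for all 9004 features, in percent on a linear axis. The red bars for HP5 (42.6%) and for HP3 after HP1 knock-down (45.9%) rise furthest above the grey bars of all features (18.7% and 20.2%).

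At the other proteins few members were called in the fit of all arrays. For HP1, 3 genes were called above 0 and 1 below, against 8.46% and 3.07% of all features, and the members' median was -0.03. For HP3 in untreated cells, 4 were called above and 0 below, against 4.41% and 2.34%. For HP6, 2 were called above and 0 below, against 7.17% and 3.42%. For Jra, 1 was called above and 1 below, against 11.2% and 6.57%. These counts are at or under the shares of all features, except for HP3, where 4 of 61 is 6.56%. The members' medians were 0.24 for HP3, 0.17 for HP6 and 0.07 for Jra. With the spread of all arrays made equal, the counts above and below 0 were 3 and 7 for HP1, 15 and 3 for HP3, 10 and 1 for HP6, and 4 and 1 for Jra. In fits of each group's own arrays alone they were 0 and 0 for HP3, 8 and 3 for HP6, and 11 and 3 for Jra. These low counts thus depend on the setting of the fit, and the reason was not tested. Without HP3 replicate 4, no member was called for HP3, and 2 were called without replicate 1. For HP1, 3 were called above 0 and 5 below without HP4 replicate 2. For HP6, 4 were called without HP1 replicate 4, HP4 replicate 1 or HP4 replicate 4, and 8 without HP4 replicate 2. With both doubted arrays left out, HP3 was called above 0 at 4 genes and below at 1, and HP6 above at 3 and below at 0.

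Above 0 for HP1 were mRpS5, mRpL48 and mRpS7, and below 0 was mRpL37. Above 0 for HP3 were mRpS5, mRpL48, mRpL52 and mRpS35, and above 0 for HP6 were mRpS5 and mRpL48. mRpL52 encodes a large subunit protein found in mitochondria and not in bacteria. Its HP3 arrays read 0.53, 1.68, 0.20 and 0.75, and the highest is from the doubted replicate 2. Its level of 0.79 was 0.48 (adjusted p = 0.153) without that array and 0.81 (0.0557) without replicate 4. mRpS35 read 1.25, 0.94, 0.07 and 0.56 with HP3, and its level of 0.70 was 0.56 (adjusted p = 0.251) without replicate 1, 0.66 (0.101) without replicate 2 and 0.71 (0.144) without replicate 4. With both doubted arrays left out, neither gene was called, while mRpS34 (1.26) and mRpS6 (0.64) were called above 0 for HP3 and mRpS7 (0.96) for HP6. mRpS29, at -0.42 in the fit of all arrays (adjusted p = 0.102), was called below 0 at -0.63 (0.0135). For Jra the calls were mRpL18 above 0, at 0.50 from arrays at 0.50, 0.71 and 0.31, and mRpL37 below. The call at mRpL18 (adjusted p = 0.0461) was lost without each of the 3 Jra arrays, at 0.51 (0.172), 0.40 (0.31) and 0.62 (0.0622), and without any of 11 other arrays.

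Some genes were called for more than 1 protein, and the overlaps lay on both sides of the shares over all features. Of the 20 genes above 0 for HP4, 16 were also above 0 for HP5, which is 80.0% of the first list and 61.5% of the second, where the shares over all features were 67.8% and 72.0%. Of the 15 above 0 for Su(var)3-9, 12 were also above 0 for HP5 (80.0% and 46.2%, against 67.6% and 58.3% of all features), and 7 genes were above 0 for all of Su(var)3-9, HP4 and HP5. Over all features, HP4 replicate 1 and HP5 replicate 1 deviated together from their group means, with a correlation of 0.547, and its part in these overlaps was not tested. Counted over the 6 heterochromatin proteins, 25 genes were called above 0 for none, 15 for 1, 14 for 2, 5 for 3 and 2 for all 6. Calls below 0 were fewer, with 49 genes below 0 for none, 9 for 1, 2 for 2 and 1 for 3 of the proteins. No share over all features is given for these counts over 3 or 6 proteins, so they describe the members only. By subunit, 19 of 43 large and 7 of 18 small subunit genes were above 0 for HP5, 14 and 6 for HP4, and 13 and 2 for Su(var)3-9.

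**Figure D2:**
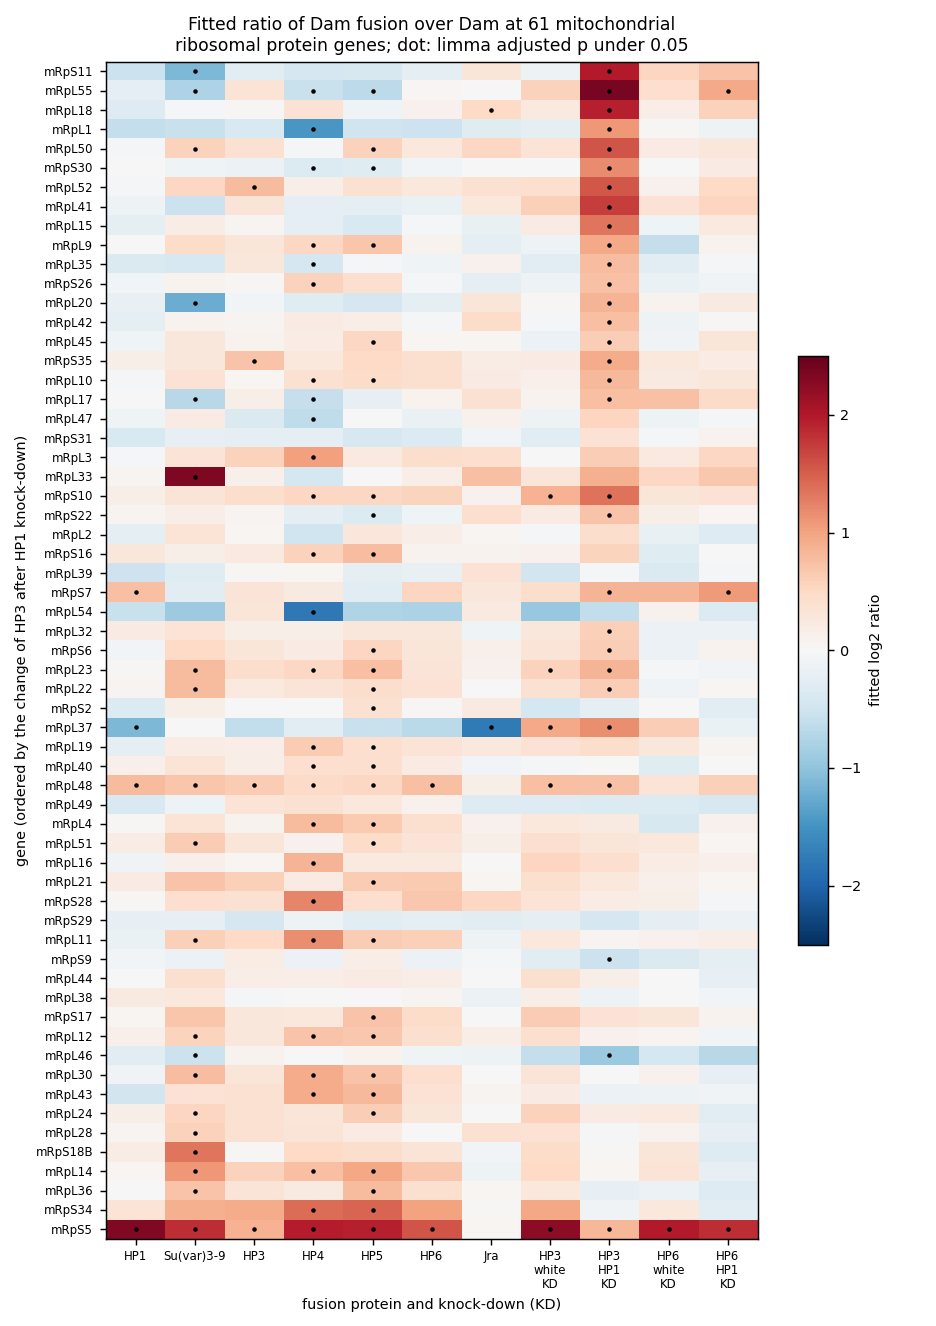
Fitted log2 ratio of Dam fusion over Dam at the 61 genes (rows, ordered by the change of HP3 between HP1 and white knock-down) in the 11 groups (columns), with a black dot where the limma adjusted p is under 0.05. The bottom row, mRpS5, is red in every column but Jra, and the top rows turn red in the column of HP3 after HP1 knock-down.

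The genes above 0 for all 6 heterochromatin proteins were mRpS5 and mRpL48. mRpS5 encodes the counterpart of a bacterial small subunit protein that lies where the message enters the ribosome in E. coli. Its HP1 arrays read 2.64, 3.04, 1.79 and 1.76. Its Su(var)3-9 arrays read 1.85, 1.78 and 1.82, and its HP5 arrays 1.75, 2.11, 1.92 and 2.00. Its HP4 arrays read 1.51, 2.58, 1.80 and 1.99, and its HP6 arrays 0.86, 1.66 and 2.11, the last from the doubted replicate 3. Every one of these arrays was above the 3 Jra arrays, which read 0.31, 0.20 and -0.45. The closest was HP6 replicate 1, at 0.86. HP3 was lower, with 1.48, 1.18 and 1.11 on replicates 1, 3 and 4 and -0.27 on the doubted replicate 2. Fitted levels were 2.31 ± 0.22 (SE, n = 4) for HP1, 1.97 for HP4, 1.94 for HP5, 1.84 for Su(var)3-9, 1.57 for HP6, 0.88 for HP3 and 0.04 for Jra. HP1, HP4, HP5 and Su(var)3-9 overlapped between their arrays and are not ordered by these values. Without the doubted arrays the levels were 1.26 ± 0.21 (SE) for HP3 and 1.25 ± 0.27 for HP6, both still called. The HP3 level of 0.88 did not pass without replicate 1 (0.64, adjusted p = 0.172), replicate 3 (0.80, 0.0761) or replicate 4 (0.82, 0.0919). The mean of the 6 proteins exceeded Jra by 1.71 ± 0.28 (SE), with an adjusted p of 1.62e-05.

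mRpS5 is also the member nearest a centromere by gene order. It is number 19 of 2739 protein-coding genes counted from the centromeric end of arm 3L, and the next closest member was number 149 on its arm. Its nearest measured neighbours behaved partly alike. FASN3, a fatty acid synthase gene, was at 2.51 for HP1, 2.39 for HP4 and -0.09 for Jra. ND-MLRQ, which encodes a subunit of respiratory complex I, was at 0.84 for HP1 and 0.60 for HP4, both called.

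mRpL48, a large subunit gene, lay lower than mRpS5. Its HP1 arrays read 0.97, 1.18, 0.46 and 0.53, its Su(var)3-9 arrays 0.68, 0.67 and 0.56, and its HP6 arrays 0.58, 0.43 and 1.08. The HP5 arrays were wider apart, at 0.46, -0.11, 0.99 and 0.76, and the Jra arrays read -0.10, -0.06 and 0.43. Its HP3 arrays read 0.26, 0.20, 0.89 and 1.18, and its HP4 arrays 0.15, 0.24, 0.87 and 0.67. HP3, HP4 and HP5 thus overlapped with Jra, while all HP1 and Su(var)3-9 arrays were above all Jra arrays. Fitted levels ran from 0.48 ± 0.14 (SE, n = 4) for HP4 to 0.78 ± 0.14 (SE, n = 4) for HP1, with 0.15 for Jra. The mean of the 6 exceeded Jra by 0.50 ± 0.17 (SE; adjusted p = 0.0224), with adjusted p of 0.102 without Jra replicate 1 and 0.0925 without replicate 2. The call for HP3 (0.64) was lost without HP3 replicate 4, at 0.51 with an adjusted p of 0.0747. The call for HP1 had an adjusted p of 0.063 in a fit of the HP1 arrays alone. Of its neighbours, frtz, a planar polarity gene, was above 0 for all 6 proteins, at 0.66 to 1.33, and CG17660 for none of them. mRpL48 is number 2463 of 2657 genes from the centromeric end of arm 2L.

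**Figure D3:**
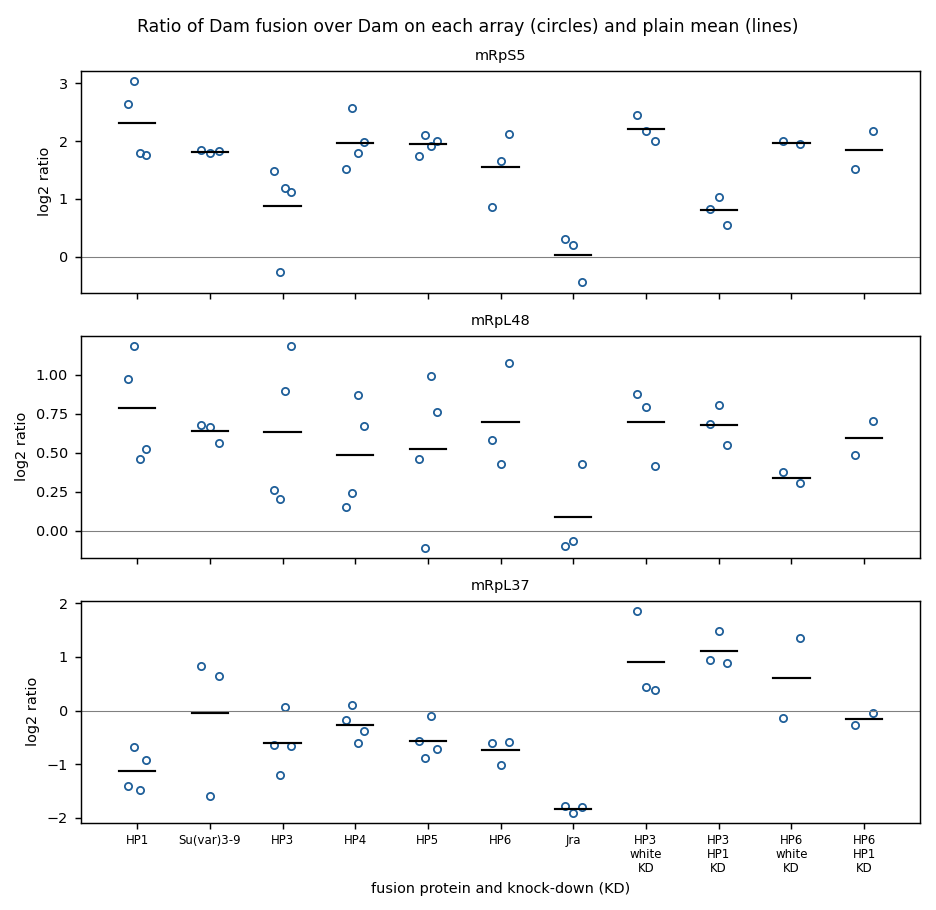
Log2 ratio of Dam fusion over Dam on each array (circles) with the plain group mean (lines) for mRpS5, mRpL48 and mRpL37 in the 11 groups. mRpS5 is above 0.5 on every array but those of Jra and HP3 replicate 2, and mRpL37 is below -1.7 on the 3 Jra arrays and above 0.3 on the 6 HP3 arrays after knock-down.

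The next genes by number of proteins were mRpL14, mRpL11, mRpL30, mRpL23 and mRpL12, each above 0 for Su(var)3-9, HP4 and HP5. With the 2 probes of mRpL12 fitted on their own, 1 was called for HP5, at 1.04 (limma adjusted p = 6.66e-05). The other was at 0.32 (0.116). mRpL14 and mRpL11 are counterparts of conserved bacterial large subunit proteins. mRpL14 read 1.58, 0.80 and 0.91 with Su(var)3-9 and 1.71, 1.30, 0.33 and 0.51 with HP5, while Jra read -0.27, -0.24 and 0.18. Every array of Su(var)3-9 and HP5 was above every Jra array for mRpL14. Its fitted levels were 1.08 ± 0.23 (SE, n = 3) for Su(var)3-9 and 0.96 ± 0.20 (SE, n = 4) for HP5, but 0.05 for HP1. mRpL11 was at 1.16 ± 0.19 for HP4, from arrays at 2.10, 1.92, 0.48 and 0.16, so that replicates 1 and 2 held the high values. Each of these 5 genes lost at least 1 of its calls when 1 array was left out. For HP4, mRpL30 went from 0.93 to 0.37 (adjusted p = 0.15) and mRpL23 from 0.52 to 0.38 (0.104) without HP4 replicate 1, and mRpL14 from 0.75 to 0.57 (0.0511). The HP4 call at mRpL23 was also lost without HP4 replicate 2 (0.47, 0.0518). For HP5, mRpL11 went from 0.63 to 0.52 (0.0884) and mRpL30 from 0.70 to 0.61 (0.119) without HP5 replicate 1. The HP5 call at mRpL30 was also lost without replicate 2 (0.74, 0.0548) and without replicate 3 (0.67, 0.077). For Su(var)3-9, the calls at mRpL11 and mRpL30 were lost without each of the 3 arrays. Without replicates 1, 2 and 3, mRpL11 went from 0.59 to 0.67 (0.0879), 0.695 (0.0682) and 0.38 (0.346). In the same order, mRpL30 went from 0.78 to 0.81 (0.104), 0.70 (0.147) and 0.82 (0.101). mRpL12 went from 0.56 to 0.53 (0.0802) without Su(var)3-9 replicate 1, and was at 0.56 (0.0553) without replicate 2.

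mRpS34, a small subunit protein found in mitochondria and not in bacteria, had the second highest HP5 level of the set after mRpS5. Its HP5 arrays read 2.19, 2.02, 1.14 and 0.49, and its HP4 arrays 3.45, 0.54, 1.17 and 0.40. The HP4 level of 1.39 ± 0.33 (SE, n = 4) rested on the first array, and without HP4 replicate 1 it was 0.80 with an adjusted p of 0.0534. The HP5 level was 1.46 ± 0.33 (SE, n = 4; adjusted p = 0.00101). In a fit of the HP4 arrays alone the adjusted p for HP4 was 0.149.

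Other genes stood out for 1 protein. mRpS18B, a small subunit gene, was at 1.33 ± 0.24 (SE, n = 3) for Su(var)3-9, from arrays at 2.51, 0.79 and 0.72, with an adjusted p of 0.112 in a fit of those arrays alone and a level of 0.75 without replicate 1. mRpL22, whose bacterial counterpart lines the exit tunnel, was at 0.80 for Su(var)3-9. mRpL33 had the highest fitted level for Su(var)3-9, 2.33, but its 3 arrays read 4.75, 2.59 and -0.36, so they did not lie on 1 side of 0. Without replicate 1 its level was 1.12 (adjusted p = 0.076), and without replicate 3 it was 3.83 (3.83e-07). mRpS28 was at 1.22 for HP4, from arrays at 2.10, 2.27, 0.50 and 0.02. mRpL43 was at 0.81 for HP5 on arrays between 0.47 and 1.21. For HP1, mRpS7 was at 0.75 ± 0.19 (SE, n = 4), and without HP1 replicate 1 at 0.65 with an adjusted p of 0.0752.

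Below 0, mRpL55 was called for the most proteins. mRpL55 encodes a large subunit protein found in mitochondria and not in bacteria. It read -0.71, -0.98 and -0.64 with Su(var)3-9 and -1.09, -1.07, -0.20 and -0.23 with HP5, and all 7 of these values were under 0. Fitted levels were -0.78 for Su(var)3-9, -0.65 for HP5 and -0.56 for HP4. Each of these calls was lost on leaving out 1 array, which gave -0.67 (adjusted p = 0.0903) without Su(var)3-9 replicate 2, -0.49 (0.12) without HP5 replicate 1, -0.50 (0.107) without HP5 replicate 2, -0.28 (0.307) without HP4 replicate 1 and -0.58 (0.0509) without HP4 replicate 4. The HP4 call also had an adjusted p of 0.226 in a fit of those arrays alone.

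The genes mRpL20 and mRpS11 were below 0 for Su(var)3-9 on every array. mRpL20 read -1.51, -1.11 and -1.21, with a fitted level of -1.25 ± 0.24 (SE, n = 3). mRpS11, the counterpart of a bacterial protein of the small subunit's platform, read -0.96, -1.48 and -0.91, with a fitted level of -1.13 ± 0.21 (SE, n = 3). For HP4, mRpL54 was at -1.78 from arrays at -1.84, -4.22, -0.67 and -0.40, and without HP4 replicate 2 it was -0.998 with an adjusted p of 0.0676. mRpL1, which in bacteria forms the stalk where spent tRNA leaves, was at -1.46 for HP4 from arrays at -1.30, -3.22, -0.78 and -0.56, and stayed called at -0.91 without HP4 replicate 2. In fits of the HP4 arrays alone the adjusted p was 0.0712 for mRpL54 and 0.073 for mRpL1. HP4 replicate 2 held the lowest value of both genes.

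The comparison with Jra asks which genes carry more of the heterochromatin proteins than of a factor outside heterochromatin. The mean of the 6 proteins was higher than Jra at 6 of the 61 genes and lower at 6, against 17.1% and 19.5% of all features, so both shares (9.84%) were under the background. Higher were mRpS5, mRpL48, mRpL37, mRpL14, mRpL11 and mRpL9. Lower were mRpS11, at -0.81 ± 0.23 (SE; adjusted p = 0.0063), and mRpL20, mRpL17, mRpL39, mRpL18 and mRpS22, at -0.71 to -0.49. These counts leaned on single Jra arrays, with 2 higher and 1 lower without Jra replicate 1, and 2 and 2 without Jra replicate 2. The call at mRpS11 was lost without Jra replicate 2 (-0.71, adjusted p = 0.0611). mRpL14 was at 0.71 (adjusted p = 0.0862) without Jra replicate 1 and at 0.73 (0.0802) without replicate 2. Without Jra replicate 1, mRpL11 was at 0.60 (adjusted p = 0.132), mRpL9 at 0.53 (0.116), mRpL17 at -0.45 (0.199), mRpL39 at -0.45 (0.216), mRpL18 at -0.51 (0.11) and mRpS22 at -0.38 (0.161). The calls at mRpL11 and mRpL9 were also lost without replicate 2 (0.0636 and 0.0637) and without replicate 3 (0.0704 and 0.101). Those at mRpL17 (0.2), mRpL39 (0.205) and mRpL18 (0.211) were lost without replicate 2 too, and that at mRpS22 (0.0606) without replicate 3. mRpL20 was at -0.80 (0.0575) without Jra replicate 1 and at -0.41 (0.313) without replicate 3, and mRpL39 at -0.56 (0.052) without the doubted arrays. The calls at mRpS5 and mRpL37 held without any 1 array.

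mRpL37 was higher than Jra by 1.24 ± 0.32 (SE; adjusted p = 0.00366) although its levels for the 6 proteins were mostly below 0. Its Jra arrays read -1.79, -1.90 and -1.80, which is the lowest Jra level of the 61 genes, at -1.78 ± 0.31 (SE, n = 3). Its HP1 arrays were also all below 0, at -1.40, -0.68, -1.49 and -0.92, with a fitted level of -1.12. The gene is a large subunit gene without a bacterial counterpart. In contrast, its HP3 arrays read 1.86, 0.44 and 0.39 after white knock-down and 0.94, 1.48 and 0.89 after HP1 knock-down, where untreated cells gave -0.64, -1.20, 0.07 and -0.67. All 6 knock-down arrays were above all 4 untreated arrays, and this difference was not tested, since untreated and knock-down arrays were not compared by design. The level after white knock-down, 0.95, was 0.42 (adjusted p = 0.584) without replicate 1 of that group and 1.15 (0.0675) without replicate 3, and it had adjusted p of 0.0653 without the dye term, 0.0656 with the replicate number as a block and 0.0532 in a fit of those arrays alone.

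With HP3 after white knock-down, 5 members were called above 0 and 0 below, against 7.47% and 3.04% of all features. With HP3 after HP1 knock-down, 28 were above 0 (45.9%) and 2 below, against 20.2% and 8.26%. The 5 were mRpS5, mRpL37, mRpS10, mRpL48 and mRpL23, and all of them were among the 28, which is 17.9% of the second list. The members' medians were 0.25 and 0.55, while those of all features were -0.00 and -0.01. With the spread of all arrays made equal, 16 were above and 3 below 0 after white knock-down, and 31 and 2 after HP1 knock-down. In fits of the arrays compared alone, 23 were above and 5 below 0 after white knock-down, and 41 and 5 after HP1 knock-down. With the replicate number as a block, 3 members and not 5 were called after white knock-down. Single arrays mattered in both groups. After HP1 knock-down the counts were 12 above and 1 below without replicate 2. After white knock-down they were 1 and 0 without replicate 1, 3 and 0 without replicate 3, and 7 and 2 without HP4 replicate 2. Without replicate 1, mRpS10 (0.87) was at 0.79 (adjusted p = 0.0675), mRpL48 (0.76) at 0.60 (0.0783) and mRpL23 (0.59) at 0.59 (0.189), so mRpS5 alone was called. The call at mRpL23 was also lost without replicate 2 (0.54, 0.212) and without replicate 3 (0.62, 0.129) of the white knock-down.

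The highest HP3 levels after HP1 knock-down were at mRpL55 (2.38), mRpS11 (1.99), mRpL18 (1.94) and mRpL41 (1.74). mRpL55 and mRpS11 were below 0 for Su(var)3-9 in untreated cells, as given above. Lowest were mRpL46, at -0.92 ± 0.21 (SE, n = 3), with arrays at -0.86, -0.84 and -0.99, and mRpS9, at -0.54. mRpL46 had read -0.57, -0.47 and -0.63 after white knock-down, a level of -0.59 that did not pass (adjusted p = 0.0668). mRpS9 was at -0.50 (adjusted p = 0.133) without replicate 2 of the HP1 knock-down and at -0.51 (0.0938) without replicate 3.

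The direct comparison asks where HP3 moved when HP1 was knocked down. HP3 rose at 11 of the 61 genes (18.0%) and fell at 1, against 8.0% and 0.5% of all features. The median change was 0.30 over the members and -0.03 over all features. The genes that rose were mRpS11, mRpL18, mRpS30, mRpL55, mRpL15, mRpL50, mRpL1, mRpL35, mRpL45, mRpL52 and mRpL9, and the gene that fell was mRpS5. The last 5 of the genes that rose fall outside the naming rule and are named for completeness. By subunit, 9 of 43 large and 2 of 18 small subunit genes rose. Every array after HP1 knock-down was above every array after white knock-down at 23 of the 61 genes, against 23.8% of all features, and below at 12, against 18.9%.

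mRpS11 read 1.94, 2.59 and 1.47 after HP1 knock-down and 0.14, -0.17 and -0.28 after white knock-down, a change of 2.11 ± 0.30 (SE; adjusted p = 4.13e-05). mRpL18, whose bacterial counterpart binds the 5S rRNA, read 1.95, 2.26 and 1.62 against 0.49, 0.06 and 0.17, a change of 1.70 ± 0.25 (SE; adjusted p = 6e-05). mRpL55 read 2.43, 2.78 and 1.92 against 0.81, 0.44 and 0.48, a change of 1.80 ± 0.33 (SE; adjusted p = 0.000552). In each of these genes the groups lay more than 1 log2 unit apart at their closest arrays. mRpS30 read 0.81, 1.60 and 1.07 against -0.12, -0.04 and 0.13, a change of 1.17 ± 0.19 (SE; adjusted p = 0.000193). mRpL15 read 0.94, 1.90 and 1.09 against 0.15, 0.06 and 0.29, and mRpL50 read 1.54, 1.84 and 1.28 against 0.43, 0.35 and 0.18. Their changes were 1.15 ± 0.26 and 1.23 ± 0.30 (SE). The groups did not overlap at either gene, and the second array after HP1 knock-down was the highest of its group at all of these genes. The other 5 genes rose by 0.76 (mRpL45) to 1.33 (mRpL1), with adjusted p from 0.00767 (mRpL9) to 0.0259 (mRpL1). The call at mRpL1 was lost without any 1 of 5 of the 6 compared arrays, at 1.24 to 1.38 with adjusted p from 0.0588 to 0.166. That at mRpL52 was lost without any 1 white knock-down array (adjusted p from 0.0512 to 0.0935), that at mRpL35 (0.86, 0.0935) without replicate 2 and that at mRpL45 (0.73, 0.0631) without replicate 3 of that group.

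Replicate 2 of HP3 after HP1 knock-down decided part of the count. Without it, 4 members rose and none fell, namely mRpS11, mRpL18, mRpS30 and mRpL55. mRpL15 was then at 0.90 (adjusted p = 0.0936), mRpL50 at 1.12 (0.0793) and mRpL9 at 0.88 (0.123). In a fit of the compared arrays alone, 23 members rose and 2 fell, among them all 12 called in the fit of all arrays. The second that fell there was mRpS34 (-1.05, adjusted p = 0.013), which read -0.11, -0.16 and 0.34 after HP1 knock-down and 1.35, 1.30 and 0.57 after white knock-down. In the fit of all arrays its adjusted p was 0.297.

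**Figure D4:**
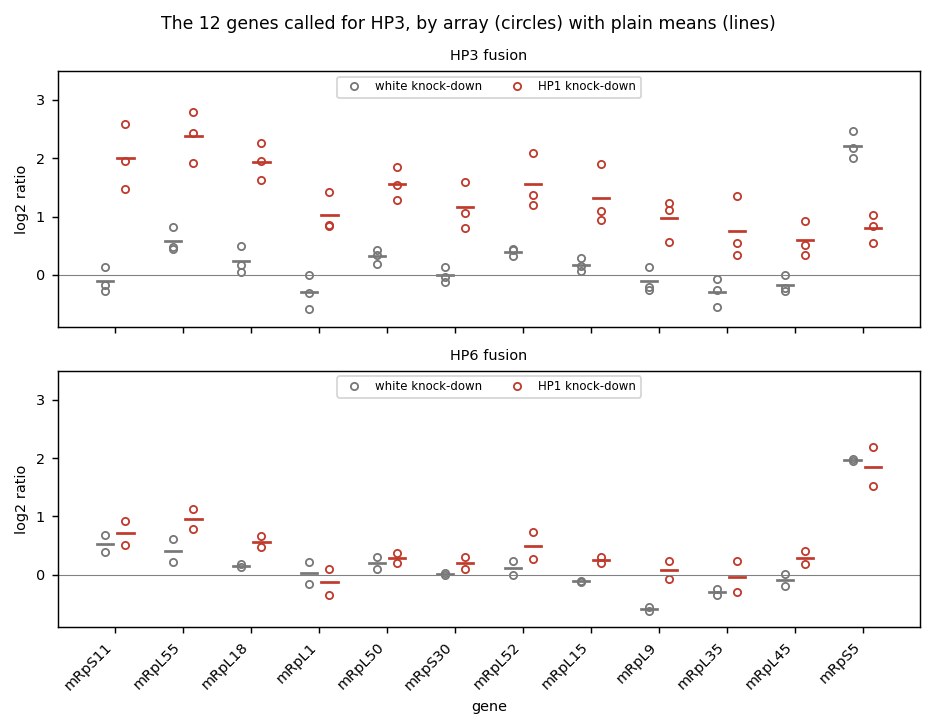
Log2 ratio on each array (circles) with plain means (lines) at the 12 genes called for HP3, after white knock-down (grey) and HP1 knock-down (red), for the HP3 fusion (top, 3 arrays each) and the HP6 fusion (bottom, 2 arrays each). Red circles lie above grey ones for HP3 at 11 genes and below them at mRpS5, and lie closer together for HP6.

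mRpS5, the gene with the highest levels of the heterochromatin proteins, was the member called lower in the fit of all arrays. It read 2.46, 2.17 and 2.01 after white knock-down and 0.83, 1.03 and 0.54 after HP1 knock-down. The groups did not overlap, and the change was -1.41 ± 0.36 (SE; adjusted p = 0.0119). HP3 stayed above 0 there after HP1 knock-down, at 0.83 ± 0.26 (SE, n = 3; adjusted p = 0.0155), but not without replicate 1 (0.79, 0.0829) or replicate 2 (0.75, 0.134) of that group. The call of the change was lost without replicate 2 of the HP1 knock-down (-1.48, adjusted p = 0.0577) and without replicate 1 of the white knock-down (-1.26, 0.0633). Its neighbours had changes of the same sign that did not pass, at -1.13 for FASN3 (adjusted p = 0.334) and -0.65 for ND-MLRQ (0.375). mRpL48, called above 0 for all 6 proteins as well, had a difference of -0.02 ± 0.22 (SE), with levels of 0.76 and 0.74 after white and HP1 knock-down.

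For each of the 6 heterochromatin proteins in untreated cells, measured on other arrays, the 11 genes that rose had a lower median level than the 49 genes without a call. The medians of the 11 were -0.11 for HP5, -0.24 for HP4, -0.22 for HP1, -0.05 for Su(var)3-9, 0.10 for HP3 and 0.05 for HP6. Those of the 49 were 0.41, 0.25, 0.01, 0.34, 0.24 and 0.29. Single genes departed from this, since 3 of the 11 were called above 0 for HP5 and 2 below, against 22 and 1 of the 49 and 18.7% and 18.9% of all features. mRpL52 was called above 0 for HP3. Across the 61 genes, the HP5 level in untreated cells and the change of HP3 had a Pearson correlation of -0.61 and a Spearman correlation of -0.53. Without mRpS5 these were -0.55 and -0.50, and over all 9004 features -0.51 and -0.50, so the members' values were close to those of all features. The corresponding Pearson values for the members were -0.56 with HP4, -0.54 with Su(var)3-9 and -0.53 with HP6. With HP1, HP3 and Jra they were -0.45, -0.35 and 0.19. Over all features, the values in the same order were -0.47, -0.49, -0.37, -0.37, -0.24 and 0.375. These are descriptions over genes of the same arrays, and genes are not independent replicates.

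**Figure D5:**
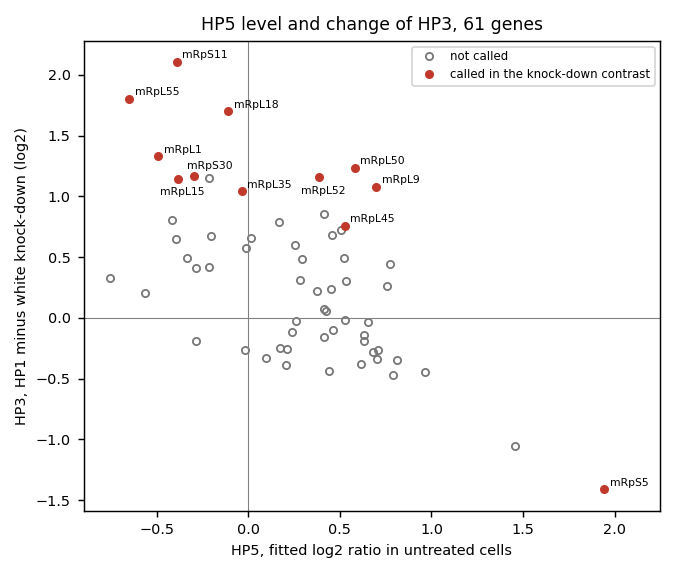
Change of HP3 between HP1 and white knock-down (vertical, log2) against the level of HP5 in untreated cells (horizontal, fitted log2 ratio) for the 61 genes, with the 12 genes called for the change filled and named. Of the 11 filled genes above the horizontal line, 7 have an HP5 level under 0, and mRpS5 lies at the lower right with 1.94 and -1.41.

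Genes next to the members rose too. Of the measured genes next to the 6 with the lowest p, 6 of 12 rose as well. These were Ns1 (1.19) beside mRpS11, Taz (1.47) beside mRpL18, Paf-AHalpha (1.27) beside mRpS30, cdi (0.77) and ATPsynD (1.37) beside mRpL55, and Neos (0.96) beside mRpL50. Taz encodes tafazzin, which remodels the mitochondrial lipid cardiolipin, and ATPsynD a subunit of the ATP synthase. The neighbours were also counted for the members other than mRpS5, whose own neighbours are given above and were left out. Of these 120 nearest measured neighbours, 17 rose and 1 fell, which is 14.2% and 0.833%, against 8.0% and 0.5% of all features. For HP5, 19 of the 120 neighbours were above 0 (15.8%) and 26 below (21.7%), near the 18.7% and 18.9% of all features. The members without mRpS5 had 25 and 3 of 60.

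HP6 gave no call between the knock-downs at any member, against 0.0% higher and 0.0222% lower over all features by limma. At an unadjusted p under 0.05, 1 member was higher and 0 lower, and 90 and 64 of all features. The members' median change was 0.05, and that of all features 0.01. The lowest p among changes above 0 was at mRpL9, whose arrays read 0.24 and -0.07 after HP1 knock-down and -0.55 and -0.62 after white knock-down, a difference of 0.67 ± 0.32 (SE; adjusted p = 1.0). Every HP1 knock-down array was above every white knock-down array at 12 members, against 22.2% of all features, and below at 10, against 18.2%.

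Of the 11 genes where HP3 rose, 10 had an HP6 difference above 0, with a median of 0.36, and none passed. The HP6 difference was above 0 at 32 of the 61 members and at 4628 of the 9004 features. Whether the 11 genes depart from this was not tested. The HP6 difference was 0.18 ± 0.37 (SE) at mRpS11, 0.41 ± 0.31 at mRpL18 and -0.13 ± 0.45 at mRpS5. Whether HP6 and HP3 differed in their response was tested directly, and no member passed, against 0.0% of all features in both directions. At an unadjusted p under 0.05, the HP6 effect was higher than that of HP3 at 1 member and lower at 7, and at 57 and 413 of all features. The difference was -1.92 ± 0.48 (SE; adjusted p = 0.321) at mRpS11 and 1.28 ± 0.57 (0.853) at mRpS5. In a fit of the knock-down arrays alone, 3 members passed with a lower HP6 effect, mRpS11 (-1.92, adjusted p = 0.0344) and mRpL18 (-1.29, 0.048) among them.

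HP6 levels against 0 were called at few members. After white knock-down, 1 gene was above 0 and 0 below, against 4.28% and 0.744% of all features, and after HP1 knock-down 3 were above and 0 below, against 4.9% and 0.733%. mRpS5 was called in both, with arrays at 1.99 and 1.96 after white knock-down and 1.51 and 2.18 after HP1 knock-down. Its fitted levels were 1.97 and 1.85, each with an SE of 0.32. Leaving out 1 of 2 arrays leaves a single one, whose spread is then taken to be that of the other groups. The level was then 1.88 (adjusted p = 0.0507) without replicate 1 of the white knock-down and 1.57 (0.109) without replicate 2 of the HP1 knock-down. The others after HP1 knock-down were mRpS7 (1.07) and mRpL55 (0.95). Without replicate 1 of that group they were at 1.43 (adjusted p = 0.057) and 1.14 (0.218), and without replicate 2 at 0.71 (0.837) and 0.76 (0.836). With the replicate number as a block, mRpL55 was at 0.97 and did not pass (adjusted p = 0.0912). With the spread of all arrays made equal, the counts above and below 0 were 4 and 3 after white and 6 and 1 after HP1 knock-down.

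Other nuclear genes of mitochondrial function were set beside the ribosomal protein genes. Of all features, 18.7% were above 0 for HP5, 20.2% were above 0 for HP3 after HP1 knock-down, and HP3 rose at 8.0%. Of 56 genes of oxidative phosphorylation, the respiratory complexes and ATP synthase, 33 were above 0 for HP5 (58.9%) and 3 below, and 30 were above 0 for HP3 after HP1 knock-down (53.6%) and 1 below. HP3 rose at 10 of them (17.9%), by 2.03 at UQCR-14, a gene of complex III, and by 1.72 at ND-39, a gene of complex I. Of 31 other genes of mitochondrial translation, 5 were above 0 for HP5 (16.1%) and 3 below, 7 were above 0 for HP3 after HP1 knock-down (22.6%), and HP3 rose at 3 (9.68%), among them mTerf3 (1.67). These shares lay near those of all features. Of 13 genes of mitochondrial import, 4 were above 0 for HP5 (30.8%) and 3 below (23.1%), against 18.7% and 18.9% of all features. HP3 after HP1 knock-down was above 0 at 7 of them (53.8%). HP3 rose at 3 (23.1%), among them Tim10 (1.45), an import chaperone of the intermembrane space.

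Of 30 genes of the cytoplasmic ribosome, 8 were above 0 for HP5 (26.7%) and 2 below, and 9 were above 0 for HP3 after HP1 knock-down (30.0%). HP3 rose at 1 of them (3.33%), RpS20 (1.40). The share above 0 for HP5 at the mitochondrial ribosomal protein genes (42.6%) lay between those of the oxidative phosphorylation and the cytoplasmic ribosome lists. No difference between lists was tested.

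The genes bonsai and tko encode mitochondrial ribosomal proteins S15 and S12 under other names and were not counted among the 61. bonsai was called in none of the comparisons, with levels from -0.31 for Jra to 0.16 for HP3 after HP1 knock-down. tko had a value on 29 of the 35 arrays and was not tested. It had 1 value for Su(var)3-9, short of the minimum of 2 arrays required of every group.

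The 13 genes with 2 probes allowed a look at agreement within genes. The 2 probes of a gene differed in their fitted values by a median of 0.0466 to 0.265 over the comparisons, and at most by 1.03, at mRpL38 for the HP6 knock-down. In no comparison were both probes of a gene called with opposite signs. Only 1 probe of the pair was called at 5 genes for HP5, at 4 for HP4 and at 3 for the change of HP3. Among these 3 were mRpL50 and mRpL52, which rose with their probes averaged. The probes of mRpL50 were at 1.11 (limma adjusted p = 0.00899) and 1.36 (0.0888), and those of mRpL52 at 1.16 (0.167) and 1.15 (0.0182).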

How the data were processed

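The values are log2 ratios of fusion over Dam, deposited by the authors as log ratios for 9993 probes on 35 2-colour cDNA arrays. The sources used here do not give their base, which was read as 2, since the range of the values leaves out base 10 but not base e, so printed sizes depend on this reading. The deposited columns have medians from -0.000168 to 0.000269, that is, the authors had centred each array. Per the labels, dyes were swapped on part of the arrays. For the scanner, background correction, normalisation and genome build nothing is given in the sources used here, and intensities were not analysed, so the number of arrays limits precision.

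The members and lists were chosen with earlier results of these data known. Probes with 1 gene were averaged per gene, and 1311 probes without a single gene were kept as they were, which gave 9047 features. Each array was centred on its median. Features needed values on 2 arrays of each group, which left out 43. limma 3.58.1 in R 4.3.3 was fitted with a dye term and a mean for every group (23 residual degrees of freedom, prior 6.81). Tests were two-sided with Benjamini-Hochberg adjustment in every comparison, at 0.05. The dye term passed for 49 features. The steps were tested on simulated data. Values after ± are standard errors of the model.

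Same-numbered HP3 arrays of the white and HP1 knock-downs deviated together from their group means, with correlations of 0.163 to 0.280 in 3 pairs. Arrays of other number gave -0.281 to 0.0931 in 6 pairs. Over all groups, same-numbered arrays gave -0.411 to 0.547, and the labels do not say that replicate numbers pair arrays. For HP6 the value was 0.194 for the same and -0.194 for the other number. With 2 arrays in each group these are 1 value with either sign, and they cannot show a pairing. With the replicate number as a block among the knock-down arrays, an alternative added after seeing the data, the same 12 members were called for HP3. The results were also computed without centring, without the dye term, with scaled arrays, fitting only the arrays compared, on complete features, on single probes, leaving out arrays, and with robust settings of limma.

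Genes were named by rule: per group up to 4 called members in each direction with all arrays on that side of 0, or the 2 with the lowest p where none passed; 5 against Jra; 6 for each knock-down contrast, or 3; the 8 members above and the 4 below 0 for the most proteins, with their neighbours; 2 per other list. mRpL33, mRpL23 after white knock-down, mRpS22, mRpL38, mRpS34 for the change of HP3, the genes called only without the doubted arrays and the last 5 genes that rose with HP3 were named after their values were seen. No sequences were used here.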

Additional observations from a re-analysis of the deposited data

Results flagged for a closer look

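One gene was singled out, because its values lay apart from those of Jra in data that no comparison used. tko, which encodes mitochondrial ribosomal protein S12, had values on 29 of 35 arrays and was left out of the fit. On the arrays of the 6 heterochromatin proteins in untreated cells, 16 of 16 values were above the highest Jra value of -0.061, and the highest was 2.44. They ran from 0.773 to 2.44 for HP5, from 1.08 to 1.94 for HP4, from 0.66 to 2.40 for HP3 and from 0.00391 to 0.925 for HP1. HP6 had -0.00736 and 0.622, and Su(var)3-9 a single value of 0.842. The Jra arrays lay between -0.181 and -0.061. The share of all features with such a separation from Jra is not given, so whether it is unusual cannot be told. The doubted arrays were not left out here. After knock-down, the HP3 arrays read -0.0236 to 0.48 with white and -0.337 to 0.0876 with HP1 knocked down, and the HP6 arrays -0.0455 and 0.0106 with white and -0.648 and -0.265 with HP1 knocked down. In 26 groups of 4 values no single array stood out by Dixon's criterion, which chance meets in about 1 of 20 groups.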

How the results depend on the processing

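With the spread of all arrays made equal, the members called, as the total with those above and below 0, were 10 (3, 7) for HP1, 18 (15, 3) for HP3, 11 (10, 1) for HP6, 5 (4, 1) for Jra, 19 (16, 3) for HP3 after white knock-down, and 7 (4, 3) and 7 (6, 1) for HP6 after white and HP1 knock-down. In fits of only the arrays compared, they were 0 for HP3, 4 (4, 0) for HP4, 11 (8, 3) for HP6, 14 (11, 3) for Jra, 28 (23, 5) and 46 (41, 5) for HP3 after white and HP1 knock-down, 25 (23, 2) for the change of HP3 and 3 (0, 3) for the difference between the knock-down effects; this fit could not be made for the HP6 knock-down groups against 0, which leave no residual degrees of freedom. Single probes gave 1 call for Jra, the replicate block 3 for HP3 after white knock-down, and leaving out the 2 doubted arrays 3 for HP6 after white knock-down. The replicate block, also among the knock-down arrays alone (12 called for HP3, 0 for HP6, 0 for their difference), changed no other count by over 1.5 times. Leaving out 1 array at a time gave 4 to 8 calls for HP1, 9 to 27 for Su(var)3-9, 0 to 5 for HP3, 16 to 29 for HP4, 14 to 33 for HP5, 2 to 8 for HP6, 1 to 4 for Jra, 1 to 9 and 13 to 37 for HP3 after white and HP1 knock-down, 0 to 3 and 0 to 4 for HP6 after them, 3 to 15 against Jra, 4 to 18 for the change of HP3, and 0 to 0 for that of HP6 and for the difference. Over 86 results at named members, the other settings gave 699 values, of which 657 kept side and call, 28 lost it, 14 gained it and 0 changed sign with a call; with 1 array left out these were 2910, 95, 5 and 0 of 3010. The causes were not tested. The HP6 knock-down groups rest on 2 arrays each and limit what a difference between the proteins can show.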
